A study of Mus musculus with 6 samples.

Results

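The expression of 10 germline genes was followed in i2PS cells, a pluripotent mouse line reprogrammed in vivo, and in the embryonic stem cell line E14TG2A. The genes are the X-linked homeobox genes Rhox5, Rhox6 and Rhox9, the RNA regulators Dazl and Ddx4, the piRNA and nuage genes Mael, Stk31 and Tdrkh, the transcription factor subunit gene Taf7l, and Sycp3 of the synaptonemal complex. They were taken by name, with earlier results of these data known. Every probe that the platform annotation assigns to them was used, which gave 16 of the 45281 probes on the Illumina bead array. The i2PS cells are of strain BALB/c and come from liver, with hepatocytes reprogrammed to pluripotency inside the animal as their stated origin. The E14TG2A cells are of strain Sv129 and come from the inner cell mass of the blastocyst, and were bought from ATCC. Both lines grew in DMEM and LIF, first over mouse embryonic fibroblasts and afterwards on gelatin, where 3 passages removed the feeders. Each line had 3 arrays of total RNA, which the study calls biological replicates. The labels do not say whether i2PS is 1 clone or name the reprogramming agents. Strain, tissue and reprogramming history differ together between the lines and cannot be told apart.

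Germline genes are silent in most somatic cells. Many have promoters rich in CpG pairs, which are kept shut by DNA methylation and, in mouse embryonic stem cells, by a Polycomb complex that contains MGA, MAX and E2F6 and reaches DNA through E-box and E2F motifs. Pluripotent cells hold this block loosely, so that part of the germline programme can be transcribed at low levels before germ cells form. The Rhox genes are a cluster of homeobox genes on the X chromosome that are expressed in placenta and gonads. The piRNA pathway works in cytoplasmic granules of germ cells called nuage, where PIWI proteins and small RNAs silence transposons.

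The promoter windows of the members are shown to let the CpG content and the motifs of this block be seen beside the expression values. RefSeq windows of GRCm38.p6, from 250 bases before to 50 after the start, were found for 8 of the 10 genes. None was found for Rhox6 and Rhox9. E-box motifs (CACGTG, which reads the same on both strands) and E2F motifs (GGCGGGA, searched on both strands) are in capitals in the 5 windows printed. They belong to the single gene of the 8 with a CpG-poor window, to the member that fell and to 3 genes measured at or near background. The windows of Dazl, Stk31 and Tdrkh are not printed. Of these, Stk31 holds an E-box, whereas Dazl, also near background, and Tdrkh hold neither motif.
Rhox5, chrX:37754358-37754657, + strand: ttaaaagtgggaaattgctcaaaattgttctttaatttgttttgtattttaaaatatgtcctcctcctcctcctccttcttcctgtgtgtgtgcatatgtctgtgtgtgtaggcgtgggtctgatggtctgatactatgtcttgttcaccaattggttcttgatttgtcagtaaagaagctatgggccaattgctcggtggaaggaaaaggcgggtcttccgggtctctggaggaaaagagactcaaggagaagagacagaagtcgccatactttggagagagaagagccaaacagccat
Taf7l, chrX:134476441-134476740, - strand: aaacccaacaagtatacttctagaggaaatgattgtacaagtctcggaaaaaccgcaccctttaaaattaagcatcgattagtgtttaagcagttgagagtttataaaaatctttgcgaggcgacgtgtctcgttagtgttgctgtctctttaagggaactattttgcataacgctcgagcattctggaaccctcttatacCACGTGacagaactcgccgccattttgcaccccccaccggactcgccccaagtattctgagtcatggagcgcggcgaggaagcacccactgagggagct
Ddx4, chr13:112652261-112652560, - strand: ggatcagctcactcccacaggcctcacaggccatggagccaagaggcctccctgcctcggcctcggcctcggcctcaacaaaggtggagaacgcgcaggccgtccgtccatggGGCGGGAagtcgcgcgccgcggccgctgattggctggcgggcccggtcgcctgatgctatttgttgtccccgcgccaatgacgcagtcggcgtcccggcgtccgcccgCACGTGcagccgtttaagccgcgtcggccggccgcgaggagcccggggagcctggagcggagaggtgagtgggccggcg
Mael, chr1:166238695-166238994, - strand: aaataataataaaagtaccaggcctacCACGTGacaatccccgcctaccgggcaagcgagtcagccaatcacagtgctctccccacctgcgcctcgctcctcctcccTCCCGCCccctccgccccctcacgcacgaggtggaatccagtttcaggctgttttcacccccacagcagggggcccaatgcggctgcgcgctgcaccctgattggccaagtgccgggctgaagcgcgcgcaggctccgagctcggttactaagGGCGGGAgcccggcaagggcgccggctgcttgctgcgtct
Sycp3, chr10:88459337-88459636, + strand: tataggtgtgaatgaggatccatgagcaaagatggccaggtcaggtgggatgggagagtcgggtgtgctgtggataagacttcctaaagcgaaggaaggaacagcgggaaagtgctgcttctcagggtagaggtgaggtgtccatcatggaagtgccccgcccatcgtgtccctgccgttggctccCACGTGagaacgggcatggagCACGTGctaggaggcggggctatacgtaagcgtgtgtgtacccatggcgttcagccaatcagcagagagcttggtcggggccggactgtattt
An E-box was present in the windows of 5 of the 8 genes, namely Ddx4, Mael, Taf7l, Stk31 and Sycp3, and in 7.15% of all 32851 mouse windows of this length. Sycp3 held 2 of them. The E2F motif was present in Ddx4 and Mael, which were thus the members with both motifs, and in 11.3% of all windows. Both motifs together occurred in 1.18% of windows. Each motif holds a CpG pair, and most member windows are richer in CpG pairs than the median window. The shares over all windows are not matched for this. These matches are a description of letters in a window, and binding was not measured.

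The CpG content of its window set Rhox5 apart from the other 7 genes with a window, which do not include Rhox6 and Rhox9. The Rhox5 window held 5 CpG pairs, under the median of 7 over all windows. It lies at the outermost start of a gene record that runs from 37754608 to 37808878. Which start these cells use was not measured. The other 7 genes held at least 15, with 15 in Sycp3, 17 in Taf7l, 24 in Mael, 25 in Tdrkh, 28 in Dazl, 28 and 29 in the overlapping windows of Stk31, and 38 in Ddx4. The Ddx4 window was richer in CpG pairs than 95.05% of all windows.

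**Figure D1:**
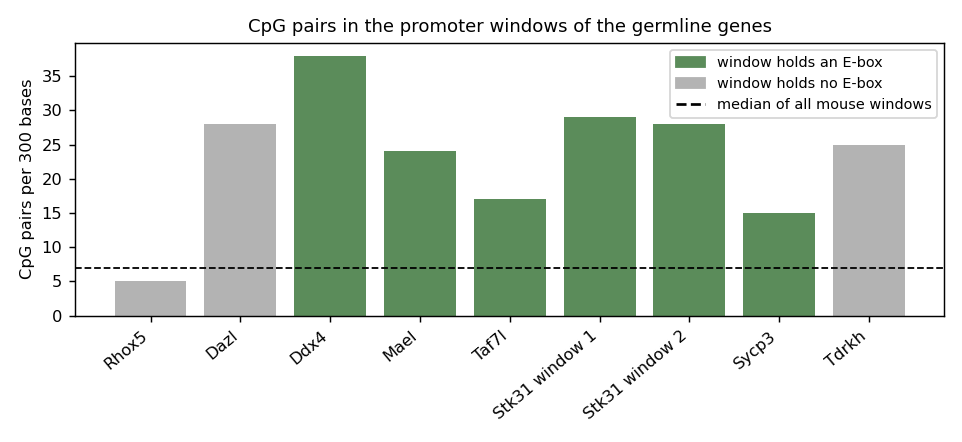
Number of CpG pairs in the 300-base promoter window of each germline gene with a RefSeq window (bars), with the median of 7 over all 32851 mouse windows as a dashed line. Green bars mark the windows with an E-box. Rhox5, at 5 pairs, is the single bar under the median, and Ddx4, at 38, is the highest.

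Most of the members were dim. Detection was judged by the deposited detection p-value, which ranks a probe among the negative controls of its array, with 0.01 as the limit. The lowest detected signal was 96.3 to 115.3 across the arrays, on the linear intensity scale of the deposited table. Of the 16 member probes, 7 were kept, each detected on the 3 arrays of i2PS, of E14TG2A or of both, and they covered 6 genes, Rhox5, Rhox6, Rhox9, Ddx4, Taf7l and Tdrkh. Dazl, Mael, Stk31 and Sycp3 did not pass this filter. One kept gene, Rhox6, passed it through i2PS alone, and the Tdrkh probe ILMN_2734624 passed it through E14TG2A alone.

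**Figure D2:**
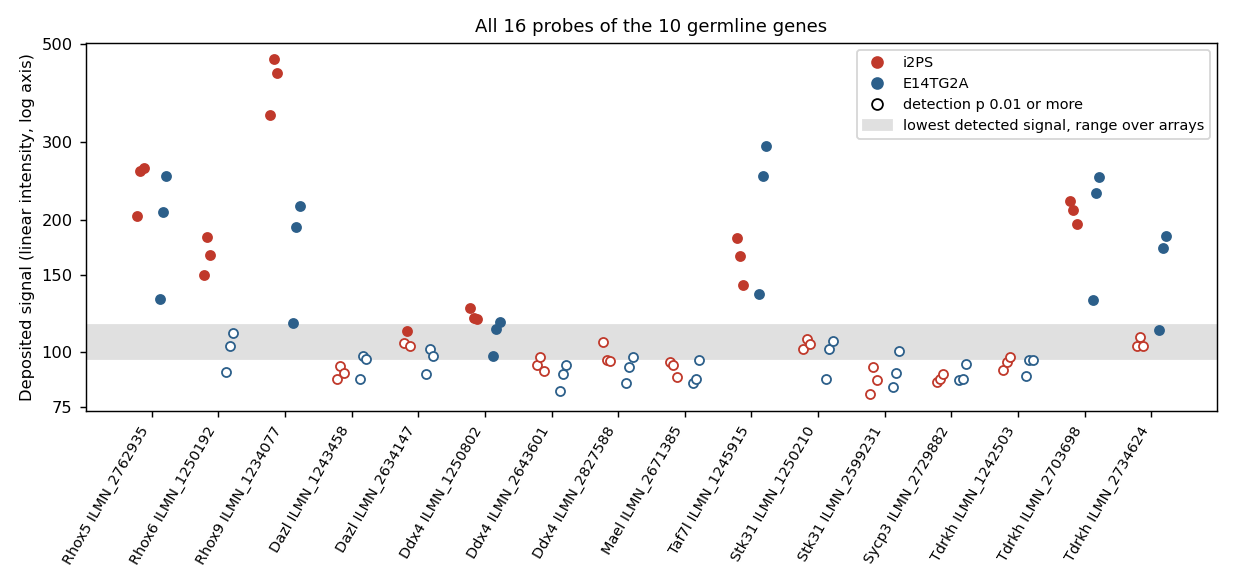
Deposited signal of all 16 probes on each array (linear intensity on a log axis), with i2PS left of E14TG2A for each probe. Filled points have a detection p under 0.01 and the grey band spans the lowest detected signal of the arrays, 96.3 to 115.3. Rhox9 is filled on all arrays and reaches 462.3 in i2PS, whereas Mael and Sycp3 have open points throughout.

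The array signals differed in brightness, which matters for dim genes. The mean signal was 340 to 357 on the i2PS arrays and 359 and 403 on E14TG2A arrays 2 and 3, but 228 on E14TG2A array 1. Signals were therefore background-corrected and quantile normalized before testing, and all levels below are normalized log2 values unless called signals. Differences are i2PS minus E14TG2A on the log2 scale, with SE and 3 arrays per line, from limma with Benjamini-Hochberg adjustment over all 8651 tested genes. All 8 pluripotency markers on the list (Pou5f1, Nanog, Sox2, Zfp42, Esrrb, Dppa5a, Utf1 and Fgf4) were detected on every array. Of 10 hepatocyte markers 9 were detected on no array. Of 10 fibroblast markers 6 were detected on no array, Col1a2, Col3a1, Lum and Postn among them, but the summed normalized signal of the list was 647 to 763 in i2PS and 500 to 521 in E14TG2A. Among the untested ones, Col1a1 was detected on 2 E14TG2A arrays and no i2PS array, and a Dcn probe on 1 i2PS array and no E14TG2A array. Both tested fibroblast markers, named here after their values were seen, were higher in i2PS. Fbln2, an extracellular matrix protein detected in i2PS alone, was at least 5.49-fold higher (limma adjusted p = 2.34e-06), and Thy1, a cell surface glycoprotein, was higher by 0.84 ± 0.16 (adjusted p = 0.00268). The part of feeder cells in the germline values was not tested.

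Of the 6 tested members, Rhox6 and Rhox9 were higher in i2PS, Taf7l was lower, and Rhox5, Ddx4 and Tdrkh did not pass. Over all genes 43.7% passed, 23.3% higher and 20.4% lower in i2PS, so that the share of members called was near the background. Of the tested genes 7.8% passed with at least a 2-fold difference in either direction and 3.16% with at least a 2-fold rise, and Rhox9, measured in both lines, ranked 31st among all fitted rises. The lines did not overlap for 3 of the 6 members, Rhox6, Rhox9 and Taf7l, against 55.8% of all genes, 30.2% with i2PS above and 25.6% with i2PS below.

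Rhox6, a homeobox gene of placenta and germ cells, had a clear signal in i2PS and lay near background in E14TG2A. Its signals were 149.8, 182.3 and 165.9 in i2PS and 90.0, 103.2 and 110.3 in E14TG2A. All 3 i2PS arrays had a detection p of 0, and no E14TG2A array was detected at 0.01, with detection p of 0.109, 0.0481 and 0.0321, although 2 of the 3 met a limit of 0.05. The normalized levels were 6.22, 6.61 and 6.47 in i2PS and 4.56, 4.68 and 4.69 in E14TG2A, so that every i2PS array stood above every E14TG2A array. Because E14TG2A was not above background, the difference is a bound, and Rhox6 was at least 2.78-fold higher in i2PS (limma adjusted p = 1.17e-05). That bound compares the i2PS mean with the lowest detected level of each E14TG2A array. Like every "at least" value given here, it holds for this background correction only. An adjusted p beside such a value is that of the fitted difference. The fitted difference was 1.79 ± 0.12, and it was 0.91 with a normexp correction, 0.69 in the authors' normalized table and 0.68 with no correction, each past the threshold.

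Rhox9, the close paralog of Rhox6 in the same cluster, was measured well above background in both lines. Its signals were 346.1, 462.3 and 429.6 in i2PS and 116.7, 192.4 and 214.2 in E14TG2A. The normalized levels were 8.07, 8.50 and 8.44 in i2PS and 6.33, 6.76 and 6.68 in E14TG2A. The lowest i2PS array was thus above the highest E14TG2A array on both scales. The difference was 1.75 ± 0.16, a 3.36-fold higher level in i2PS (limma adjusted p = 4.51e-05), and it was 1.19 to 1.88 across 18 alternative settings, past the threshold in each. Rhox6 and Rhox9 have 1 probe each, and how far either probe also reads the other gene's transcript was not tested.

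Rhox5, the founding member of the cluster, differed less. Its signals were 204.0, 258.1 and 261.8 in i2PS and 131.9, 208.6 and 251.3 in E14TG2A, with detection on all arrays. The normalized levels were 6.99, 7.41 and 7.51 in i2PS and 6.80, 6.94 and 7.03 in E14TG2A, and i2PS array 1 lay within the range of E14TG2A. The difference of 0.38 ± 0.15 did not pass (limma adjusted p = 0.0665), with a 95% confidence interval from 0.04 to 0.71 that excluded a 2-fold difference. Without i2PS array 1 it was 0.53 and passed (adjusted p = 0.0145). The intervals of Rhox6, from 1.51 to 2.07, and Rhox9, from 1.39 to 2.10, lay wholly above that of Rhox5.

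The rest of the Rhox cluster was thinly covered. Of 32 cluster genes on the list, 9 were on the array under their own symbol and 4 were tested, the fourth being Rhox13, a testis-expressed gene at the other end of the cluster. Rhox13 was higher in i2PS by 0.56 ± 0.15 (limma adjusted p = 0.0127). It no longer passed when i2PS array 2 was left out (0.45, adjusted p = 0.0568) or when arrays were scaled to equal medians. Of the 5 untested cluster genes, Rhox1 was detected on 1 E14TG2A array and the other 4 on none. Among all 282 tested X-linked genes, 55 were higher and 84 lower in i2PS, with a median difference of -0.07. Rhox6, Rhox9 and Rhox13 were among the 55, and Rhox5 was in neither group.

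Signals of other cells that use Rhox genes were looked at beside these values. Of 8 trophoblast markers on the array 4 were detected nowhere, Elf5, Eomes, Hand1 and Tpbpa among them, and the summed normalized signal of the list was 281 to 302 in i2PS and 322 to 345 in E14TG2A. Of 7 markers of Sertoli and other gonadal somatic cells 6 were detected nowhere, among them Amh, Nr5a1 and Dmrt1, and the sums were 193 to 209 in i2PS and 186 to 189 in E14TG2A. Markers of 2-cell-like cells summed to 182 to 223 in i2PS and 124 to 159 in E14TG2A, and 3 of the 5 on the array were detected nowhere. The tested marker of that list, Zscan4c, was higher by 1.28 ± 0.27 (limma adjusted p = 0.00511). Markers of extraembryonic endoderm summed to 1343 to 1433 in i2PS and 911 to 989 in E14TG2A, with Gata4, Sox17 and Foxa2 among the 4 of 8 detected nowhere. Of the 4 tested, the laminin gene Lama1 was higher by 1.42 ± 0.11 (adjusted p = 2.44e-05), Dab2 was lower, at -0.31 ± 0.10, and Gata6 and Sox7 did not pass. Of the other lists, Sox9, detected on 2 E14TG2A arrays, was higher, by 0.47 ± 0.15, and the trophoblast markers Gata3 and Krt7 were lower. Among the untested trophoblast markers, an Ascl2 probe was detected on 2 i2PS arrays and no E14TG2A array. Cdx2 was detected on 2 E14TG2A arrays and no i2PS array. These single markers were named after their values were seen. The part of these cells in the Rhox values was not tested. In such bulk RNA, more cells of a type and more RNA per cell cannot be told apart.

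By the rule for the most similar profile, the member with the largest fitted difference, Rhox6, was set against every tested gene over the 6 arrays. That order depends on the processing, since Rhox9 differed more than Rhox6 with normexp (1.36 and 0.91), with no background correction (1.19 and 0.68), in the authors' table (1.21 and 0.69) and with equal medians (1.88 and 1.81). The highest Pearson correlations were with Serpinb6a, a serine protease inhibitor, at 0.9995, Klk10, a kallikrein protease, at 0.9994, and Dock6, a guanine nucleotide exchange factor, at 0.9991. Serpinb6a was higher in i2PS by 0.75 ± 0.10 and Dock6 by 1.27 ± 0.12, and Klk10, detected on no E14TG2A array, was at least 2.01-fold higher. In all, 100 genes correlated above 0.99 with Rhox6, and these points share only 6 arrays in 2 groups.

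**Figure D3:**
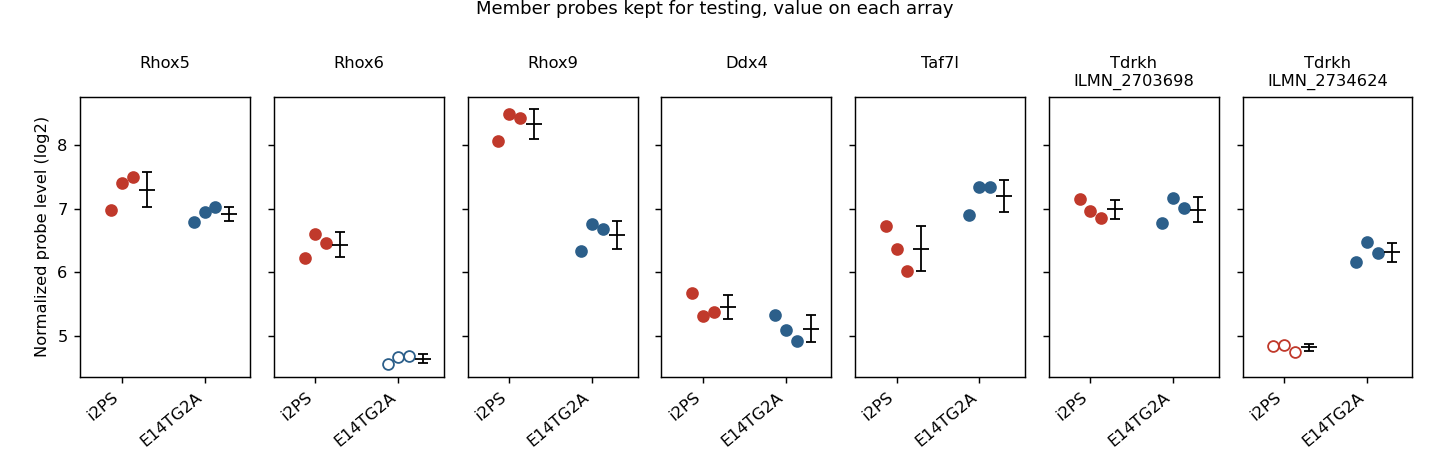
Normalized log2 level on each array for the 7 kept probes of 6 germline genes, i2PS (red) left of E14TG2A (blue), with the mean and SD of 3 arrays beside the points. Open points have a detection p of 0.01 or more. The lines separate for Rhox6, Rhox9, Taf7l and the probe ILMN_2734624 of Tdrkh, and overlap for Rhox5, Ddx4 and the probe ILMN_2703698 of Tdrkh.

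Taf7l, the germ-cell paralog of the TFIID subunit gene Taf7, was the one tested member that fell. Its normalized levels were 6.73, 6.37 and 6.02 in i2PS and 6.91, 7.35 and 7.35 in E14TG2A. The lines did not overlap, but the nearest arrays, i2PS 1 and E14TG2A 1, were close. On the deposited signal scale the lines did overlap, with 182.1, 165.6 and 142.3 in i2PS and 135.7, 251.4 and 294.7 in E14TG2A, where array 1, the dim one, was the lowest of all 6. The difference was -0.83 ± 0.19, or 1.78-fold lower in i2PS (limma adjusted p = 0.00744), and without E14TG2A array 1 it was -0.99 (adjusted p = 0.00273). It was -0.48 with no background correction and did not pass with arrays scaled to equal medians (-0.68, adjusted p = 0.287). Taf7l is X-linked like the Rhox genes and moved in the opposite direction to Rhox6 and Rhox9.

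Ddx4 encodes the VASA helicase of germ cells, and 1 of its probes was detected in both lines. Its probe ILMN_1250802 gave signals of 126.1, 119.6 and 118.7 in i2PS and 98.1, 112.8 and 116.9 in E14TG2A, all just above background. The normalized levels were 5.68, 5.31 and 5.39 in i2PS and 5.34, 5.09 and 4.92 in E14TG2A, with i2PS array 2 below E14TG2A array 1. The difference of 0.34 ± 0.15 did not pass (limma adjusted p = 0.0846), and its interval ran from 0.01 to 0.67. Without E14TG2A array 1 it was 0.48 and passed (adjusted p = 0.0190). The other 2 Ddx4 probes were detected on no array at 0.01, so that the value rests on 1 probe of 3.

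Tdrkh encodes a tudor and KH domain protein on the mitochondrial surface that binds PIWI proteins during piRNA trimming, and its probes disagreed. The brighter probe, ILMN_2703698, stood for the gene and gave normalized levels of 7.16, 6.96 and 6.86 in i2PS and 6.79, 7.17 and 7.01 in E14TG2A. These overlapped, and the difference of 0.01 ± 0.13 (limma adjusted p = 0.981) had an interval from -0.30 to 0.31. The second probe, ILMN_2734624, gave signals of 103.5, 108.4 and 103.3 in i2PS, where it was detected on no array at 0.01 and on all 3 at 0.05, and 112.5, 172.5 and 183.6 in E14TG2A, where it was detected on all 3. It was kept through E14TG2A alone, the line where it was higher. It was at least 2.56-fold lower in i2PS (limma over all 12841 kept probes, adjusted p = 3.10e-05, where 40.6% of probes passed). Its fitted difference of -1.50 was -0.76 with normexp, -0.58 in the authors' table and -0.57 with no background correction, each past the threshold. The third probe, ILMN_1242503, was detected nowhere.

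The annotation gives all 3 Tdrkh probes the same transcript accession, although RefSeq lists several transcripts of the gene. Which transcripts each probe reads was not analysed here, and a strain difference in the probed sequence was not tested. The mean of both kept probes fell by 0.75 ± 0.12 in i2PS (limma adjusted p = 0.00113), which describes neither probe.

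Dazl, an RNA-binding protein needed for germ cell development, stood at the edge of detection. Its probe ILMN_2634147 gave signals of 104.6, 111.6 and 103.4 in i2PS and 89.4, 101.8 and 98.2 in E14TG2A, with every i2PS array above every E14TG2A array. The detection p-values were 0.0139, 0.00855 and 0.0331 in i2PS and 0.145, 0.0652 and 0.418 in E14TG2A. It was thus detected on 1 i2PS array at the limit of 0.01 and on all 3 at 0.05, and on no E14TG2A array at either. With the limit at 0.05, Dazl entered the test through i2PS alone, the line where its signals were higher. Its fitted difference at that limit was 0.41 ± 0.12 (limma adjusted p = 0.0255), and with no filter it passed as well (adjusted p = 0.0384). The E14TG2A values were at background, so that this is not a measured fold. The second Dazl probe, ILMN_1243458, was detected nowhere, with signals of 87.0 to 92.9 in i2PS and 86.8 to 97.8 in E14TG2A. Its normalized difference was -0.11.

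Stk31, a tudor domain kinase of germ cells, was also near the detection limit. Its probe ILMN_1250210 gave signals of 101.4, 107.3 and 104.5 in i2PS and 86.9, 101.6 and 105.7 in E14TG2A. Detection at 0.05 was met on all 3 i2PS arrays and on no E14TG2A array, and detection at 0.01 on none. After normalization the levels were 4.75 to 4.82 in i2PS and 4.39 to 4.60 in E14TG2A, which do not overlap. When it entered with the limit at 0.05, through i2PS alone, the difference of 0.28 ± 0.11 did not pass (limma adjusted p = 0.0603). The other Stk31 probe was detected nowhere.

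Mael, a nuage protein of transposon silencing, and Sycp3, which forms the axial and lateral elements of meiotic chromosomes, gave no signal above background. Mael signals were 94.8, 93.5 and 87.6 in i2PS and 85.1, 87.0 and 95.9 in E14TG2A, with detection p-values of at least 0.198 in i2PS and 0.456 in E14TG2A. Sycp3 signals were 85.6, 86.7 and 89.1 in i2PS and 86.6, 87.1 and 94.2 in E14TG2A, with detection p-values of at least 0.735 in i2PS and 0.310 in E14TG2A. A transcript under the detection limit of 1 probe is not shown to be absent. The signals of both genes overlapped between the lines.

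Other germline genes were counted from lists of the Rhox cluster, the piRNA pathway, meiosis, primordial germ cells and promoter-methylated germline genes. The lists were chosen with earlier results of these data known, so that their counts are a description only. Without the 10 members these lists held 107 genes, of which 79 were on the array, 37 were detected on no array and 35 were tested. Among the 35, i2PS was higher for 20 and lower for 4, and 11 missed the threshold, against 23.3% higher and 20.4% lower over all genes. Their median difference was 0.54, beside 0.03 over all tested genes, and 3 of them were detected in 1 line alone. With arrays scaled to equal medians 7 passed as higher and 1 as lower. The shares over all genes, 23.3% higher and 20.4% lower, are also the background for the counts of each list below.

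In the piRNA and nuage list 21 genes were on the array, and of the 7 tested beside the members 4 were higher and 1 was lower. Tdrd12, a tudor domain partner of PIWI proteins, was higher by 1.12 ± 0.12 (limma adjusted p = 1.36e-04) and Rnf17, a germ-cell RING and tudor protein, by 0.96 ± 0.19. Ddx25, a testis RNA helicase, was at -0.35 ± 0.12 (adjusted p = 0.0390). That call ended in 8 of 18 alternative settings, among them each left-out array but E14TG2A 1 (adjusted p = 0.0802 to 0.134).

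In the meiosis list 24 genes were on the array, 14 were detected nowhere, and of 8 tested 5 were higher and 1 was lower. Stag3, the meiosis-specific cohesin subunit that binds beside Sycp3 on chromosome axes, was higher by 2.09 ± 0.15 (limma adjusted p = 1.37e-05), the 14th largest rise of all genes. Mlh3, a mismatch repair protein of crossovers, was higher by 1.39 ± 0.10 with all 3 of its probes past the threshold. Mlh3 lies on chromosome 12 between Exd2 and Ddx24, where 58 of 83 tested genes were higher and 1 was lower, with a median of 0.54. Tex14, a protein of germ-cell bridges, was lower, at -0.51 ± 0.15 (adjusted p = 0.0213). It did not pass once i2PS array 2, i2PS array 3 or E14TG2A array 3 was left out (adjusted p = 0.0878, 0.0571 and 0.0702).

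In the primordial germ cell list 5 of 11 tested non-members were higher and 1 was lower. Nanos3, an RNA-binding protein needed for germ cell survival, was detected in i2PS alone and was at least 1.87-fold higher there (limma adjusted p = 1.37e-05). Its fitted difference was 1.47, against 0.69 with normexp, 0.51 in the authors' table and 0.50 with no background correction. Ifitm1, an interferon-induced membrane protein that marks early germ cells, was higher by 1.03 ± 0.11, with its other 2 kept probes higher as well. Dppa3, known as Stella, a maternal factor of germ cells and oocytes, went the other way and was 2.83-fold lower in i2PS (-1.50 ± 0.13, adjusted p = 3.39e-05). The Dppa3 difference was -0.95 with normexp, -0.78 in the authors' table and -0.76 with no background correction, each past the threshold.

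Among further germline genes that promoter methylation is known to silence in somatic cells, 5 of 8 tested were higher and 1 was lower. Tuba3a, a testis alpha-tubulin with a near-identical copy, was higher by 1.01 ± 0.15, with detection on 2 of the 3 E14TG2A arrays. Its other 3 kept probes were higher too, by 1.58 to 1.69. The value of the gene was 1.57 when E14TG2A array 2 or 3 was left out, but the probe that stands for a gene is chosen anew in each setting. Trim6, a tripartite motif protein, was higher by 0.92 ± 0.18. Both calls ended with arrays scaled to equal medians (adjusted p = 0.0562 and 0.0604). The X-linked testis gene Tex16 was detected in E14TG2A alone and was at least 1.27-fold lower in i2PS (limma adjusted p = 0.00360). Its fitted difference was -0.80, against -0.25 with no background correction, and it did not pass with equal medians (-0.71, adjusted p = 0.261).

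The regulators that silence germline genes were measured too, in a list that also holds the demethylases Tet1 and Tet2. Of 21 tested, i2PS was higher for 10 and lower for 1, while 10 missed the threshold. Over all genes 23.3% were higher and 20.4% lower. The median difference of the list was 0.23, beside 0.03 over all tested genes. With arrays scaled to equal medians 2 of the list passed as higher and 0 as lower. Ehmt2, a histone H3K9 methyltransferase, was higher by 1.19 ± 0.12 (limma adjusted p = 7.55e-05), with its other kept probe at 1.05, and Tet1, which oxidises methylcytosine, was higher by 1.07 ± 0.11. Max, the partner of MGA, was detected in E14TG2A alone and was at least 1.20-fold lower in i2PS (adjusted p = 0.0481), with a fitted difference of -0.40 and of -0.12 with no background correction. This call ended in 12 of 17 alternative settings. It ended without any single array other than E14TG2A 2 (adjusted p = 0.0524 to 0.121), and the count of 10 rises was 6 without i2PS array 2.

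**Figure D4:**
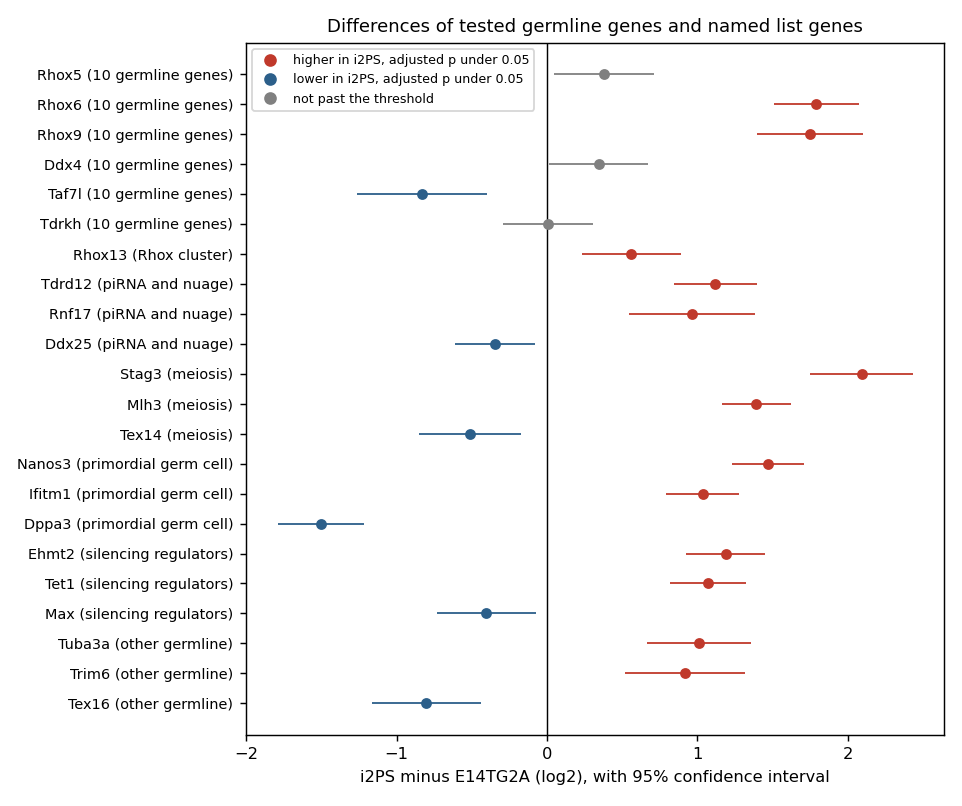
Difference between i2PS and E14TG2A (log2) with its 95% confidence interval for the 6 tested germline genes and the genes named from the lists. Red points passed as higher, blue points as lower, and grey points did not pass, and Rhox6, Nanos3, Max and Tex16, each undetected in 1 line, are shown at their fitted values. Stag3, at 2.09, Rhox6 and Rhox9 lie farthest right and Dppa3, at -1.50, farthest left.

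**Figure D5:**
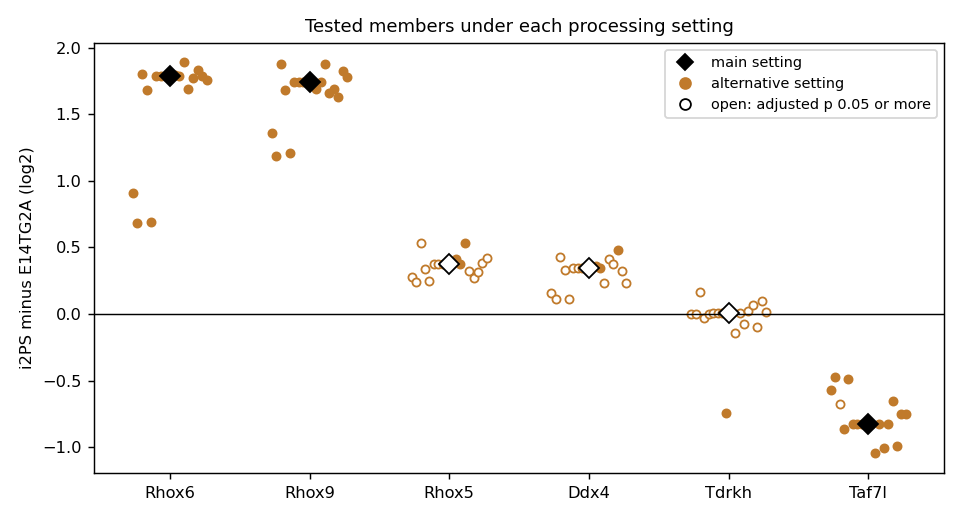
Difference between i2PS and E14TG2A (log2) of the 6 tested germline genes under the main setting (diamonds) and the alternatives (orange points), both open where the adjusted p was 0.05 or more. Rhox6 and Rhox9 stay above 0.6 and filled throughout, Taf7l stays below 0, and Tdrkh lies near 0 but for -0.75 with the mean of its probes.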

How the data were processed

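Total RNA of 6 cultures, 3 per line, was hybridised to Illumina 1-colour bead arrays. The deposited intensity values per probe came from GenomeStudio, per the submitters' processing notes, with no version or setting given, and the authors deposited a detection p-value beside each one, in steps of 1 in 936. A second deposited intensity table was found, from its values, to be quantile normalized on the linear scale, and it was used as an alternative. The lines were compared with limma 3.58.1 in R 4.3.3. The function neqc, with an offset of 16, inferred the negative controls through the detection p-values and gave quantile-normalized log2 values. A probe was kept if it had 1 gene symbol and a detection p under 0.01 throughout the 3 arrays of i2PS, of E14TG2A or of both. The platform annotation named 34885 probes with 1 symbol, 18 with several and left 10378 unlisted, and symbols were updated with RefSeq of GRCm38.p6. The probe with the highest mean stood for a gene. lmFit and eBayes were used with Benjamini-Hochberg adjustment at 0.05, and the fit was tested on simulated data. The arrays, 3 per line, limit the precision. Each p-value rests on the spread among 3 cultures per line and on a variance that limma shares across all tested genes. With arrays scaled to equal medians the SE was 0.36 for every tested member, which is the shared value alone. Where a line had no array with detection, the fold given is a bound against the lowest detected level of each dim array, or its own level where higher. The members and lists were chosen with earlier results of these data known. The genes named were all members, the 2 largest rises and falls past the threshold in each list, and the 3 genes most correlated with the member of largest difference. Promoter windows were read from RefSeq tables and searched for exact motifs. The 18 alternatives changed the background, scaling, table, filter, probe rule, variance model, array weights and block, or left out 1 array.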

Additional observations from a re-analysis of the deposited data

How the results depend on the processing

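Rhox6 and Rhox9 kept their direction and passed under every alternative that tested them, 17 and 18 settings, and Taf7l under all but 1 of 18. With arrays scaled to equal medians the median difference of all genes moved to 0.19 from 0.03. In that setting 634 genes passed, 357 higher and 277 lower in i2PS, against 3781, 2017 and 1764. The SE of every tested member was 0.36 there, against 0.12 to 0.19 in the main setting. Taf7l was then at -0.68 and did not pass, which left 0 members lower by limma (0 also at an unadjusted p under 0.05). Of other germline genes 7 were higher and 1 lower. In the regulator list 2 genes, Ehmt2 and the demethylase gene Tet1, were higher and 0 lower (5 and 0 unadjusted). Rhox5 and Ddx4 passed with array weights (0.41 and 0.36), so that 4 members were higher. Deviations from the group means correlated at 0.0089, -0.047 and 0.068 between same-numbered arrays. Of 3 i2PS arrays, 2 correlated best with their own number. With 3 arrays per line, these values cannot settle whether the replicate numbers pair the samples. With the replicate number as a replicate block, Rhox5 at 0.38 and Ddx4 at 0.34 passed, again giving 4 higher members. Tdrkh changed sign to -0.029 with cyclic loess for the gene and its brighter probe, -0.14 with array weights, and -0.75 with the mean of its probes, which made 2 members lower. Among genes detected on all 6 arrays Rhox6 was not tested and 1 member was higher. Without the filter on dim probes 2 other germline genes were lower. The single lower silencing regulator was lost (0) with normexp, no background correction, the authors' table and all 3 other filters (2 to 4 lower at an unadjusted p under 0.05), while 2 were lower with cyclic loess and 3 with array weights. Leaving out 1 array in turn gave 0.27 to 0.53 for Rhox5, 0.23 to 0.48 for Ddx4 and -0.10 to 0.10 for Tdrkh, where it was -0.08 without i2PS array 1 and -0.10 without E14TG2A array 1. It gave 2 to 4 other germline genes lower, with 2 without i2PS array 2, i2PS array 3 or E14TG2A array 3. In the regulator list it gave 6 to 11 genes higher and 0 to 2 lower. The lower count was 0 without i2PS array 1, 2 or 3 or E14TG2A array 3, and 2 without E14TG2A array 2. The cause of these changes was not tested. A slide block was not run, since no slide is given in the sources used here. Signals within the range of the lowest detected values, as for Dazl, Stk31, Mael and Sycp3, limit what can be said of the dim members.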
